A study of Drosophila melanogaster with 2 samples.

Results

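The genes described here are 8 transcription factor and co-factor genes of Drosophila neural stem cells (neuroblasts): dpn, ase, wor, sna, esg, SoxN, nab and pros. They were chosen by name, and all 8 were found among the 13945 protein-coding genes of the 6 main chromosome arms. The series measured, by chromatin immunoprecipitation with sequencing (ChIP-seq), where a green fluorescent fusion of Klumpfuss (klu-eGFP) sat in chromatin of whole transgenic embryos aged 0 to 24 h, pulled down with an antibody against GFP. The samples form 1 group of 2 biological replicates without a comparison group, and a control library was not analysed here. Deposited were 4 thresholded peak lists (a pooled list of 3126 peaks, a conservative list of 2413, and the lists of replicate 1 with 1553 and replicate 2 with 2585) and 4 longer ranked lists of candidate peaks. Every peak carries a score that runs to 1000, at least 830 in the thresholded lists, and a signal, a height per peak for which the sources used here give no scale. Both are the authors' own values per peak. Without read counts the depth of each library is unknown, and the list lengths depend on it. The insertion is described in the labels as targeting klu, and whether these embryos also made untagged Klu is not given there.

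Klumpfuss (Klu) is a zinc finger factor of the EGR/WT1 family that helps neuroblasts keep their identity. A neuroblast divides asymmetrically to renew itself and to give rise to a smaller cell that goes on to differentiate. Of the factors studied here, Deadpan (dpn) is a Hes-type repressor that maintains self-renewal. Asense (ase) is a basic helix-loop-helix protein of the achaete-scute complex, and Worniu (wor), Snail (sna) and Escargot (esg) are Snail-family zinc finger proteins. SoxN is an HMG-box protein of the SoxB group needed for neuroblast formation, and nab encodes a co-factor named after the mammalian NAB proteins, which bind EGR factors. Prospero (pros) is a homeodomain protein that is passed to the smaller daughter cell and promotes differentiation. Neuroblasts are only some of the cells of a whole embryo, so a peak list of whole embryos cannot tell a site bound in few cells from an unbound site.

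None of the 8 genes had a thresholded peak at its start. No summit of the pooled list lay within 1 kb of a start of any of them, against 2243 of all protein-coding genes (16.1%). No pooled summit lay inside any of the 8 gene bodies either, against 1231 genes (8.83%). With windows of 20 kb on both sides of the gene, 3 of the 8 had a pooled summit, dpn, SoxN and pros, against 67.4% of all protein-coding genes. These windows covered 423 kb, overlapped 45 protein-coding genes and held 6 pooled summits, 14.2 per Mb against 23.1 per Mb over the main arms. The median signal of the 6 peaks was 99.3, against 106 for all pooled peaks on the arms. The order differed between lists: the median near the 8 genes was 178 against 125 in the conservative list, 73.9 against 69.9 in replicate 1 and 57.7 against 74.7 in replicate 2. These medians rest on 4, 3 and 7 peaks, and the highest signals in each list were those past pros, at the starts of other genes. Shares over all genes are given as a background, and no test was run on 8 genes.

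**Figure D1:**
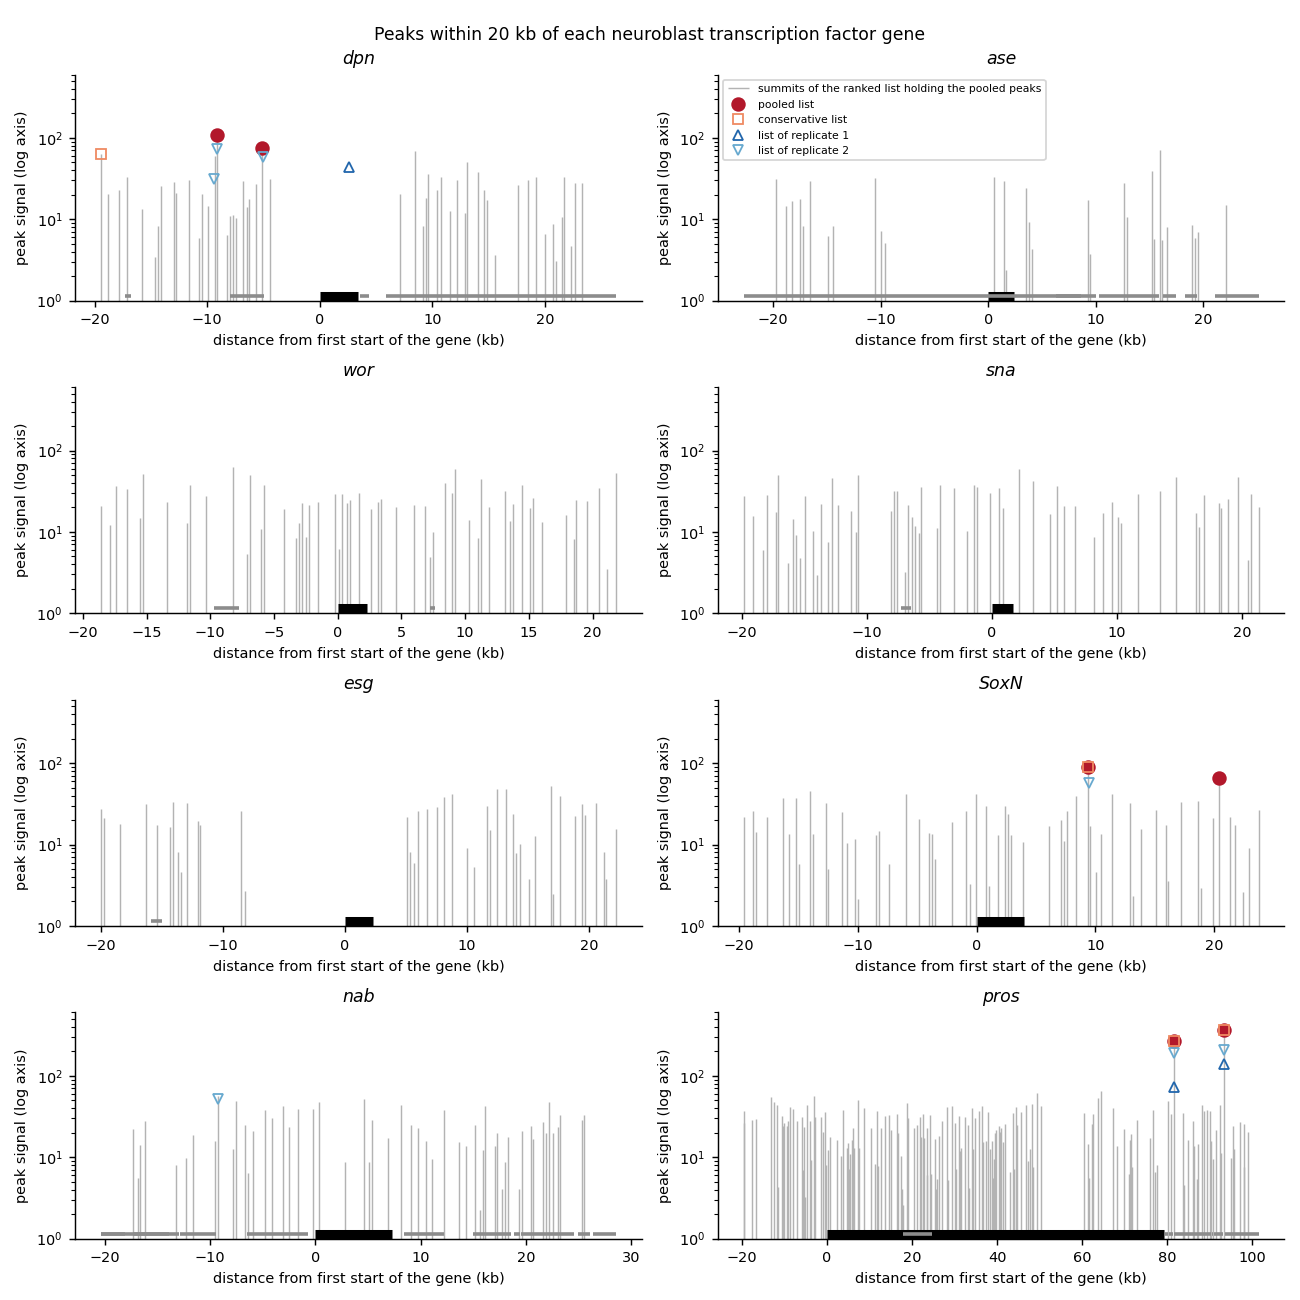
Peak signal (log axis) against distance from the first start of each gene, in the direction of transcription, for summits within 20 kb of each of the 8 genes. Grey stems are summits of the ranked list that holds the pooled peaks, symbols are the thresholded lists, the black bar is the gene and grey bars are other protein-coding genes. Pooled peaks (filled circles) are seen around dpn, SoxN and pros, outside the gene bodies.

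SoxN was the only member with a pooled peak for which its own start was the nearest protein-coding start, where 16.0% of all protein-coding genes held that place for at least 1 pooled summit. SoxN (2L:8825645 to 8829670, plus strand, 4026 bp, 1 start) has no other protein-coding gene within 20 kb. Its nearer peak had its summit at 2L:8834985, in intergenic sequence 5315 bp past the end of the gene and 9340 bp from its start. The signal there was 89.9 in the pooled list, with a score of 1000, and the same peak stood in the conservative list. Replicate 2 listed it among its thresholded peaks with a signal of 56.6 and a score of 1000, and replicate 1 ranked it with a signal of 46.0 and a score of 614, below the threshold. Both replicates thus listed a peak at this place, and their summits at 2L:8834934 and 2L:8835069 lay on either side of the pooled summit. A second pooled peak, 16405 bp past the end of the gene at 2L:8846075, had a signal of 65.4 and a score of 856. Its nearest protein-coding start was that of CG32986, at 16701 bp, and the SoxN start lay 20430 bp away. The second peak was in no other thresholded list. Its score was 706 in the ranked list that holds the conservative peaks, 310 in replicate 1 (signal 29.4) and 819 in replicate 2 (signal 36.2). In signal these peaks stood low to middling in the pooled list, above 36.6% and 11.0% of its peaks.

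The sequence under the peaks is shown for 3 places. They are the farther SoxN peak (intergenic, nearest protein-coding start CG32986), the peak nearest to pros, and the ranked peak closest to the threshold beside sna. Each is the 300 bp around the summit on the plus strand of dm6, from the RefSeq copy of release 6. Capitals mark matches on either strand to any of 10 short motifs searched: GTGGGCG and its variant GTGGGTG (EGR-type), CAGGTG (Snail-type E-box), CAGGTAG (Zelda-type), GAGAG (GAGA factor), TATCGATA (the DRE), CACGTG as well as CACGCG (Hes-type), and ACAAAG as well as ACAATG (Sox-type).
SoxN, farther peak, chr2L:8845925-8846224: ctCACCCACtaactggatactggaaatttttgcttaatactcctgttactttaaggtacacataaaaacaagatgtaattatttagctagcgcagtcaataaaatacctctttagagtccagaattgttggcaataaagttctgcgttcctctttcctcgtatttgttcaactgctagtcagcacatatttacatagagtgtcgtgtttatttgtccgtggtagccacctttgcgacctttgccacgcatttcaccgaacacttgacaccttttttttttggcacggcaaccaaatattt
Irbp, peak nearest to pros, chr3R:11409824-11410123: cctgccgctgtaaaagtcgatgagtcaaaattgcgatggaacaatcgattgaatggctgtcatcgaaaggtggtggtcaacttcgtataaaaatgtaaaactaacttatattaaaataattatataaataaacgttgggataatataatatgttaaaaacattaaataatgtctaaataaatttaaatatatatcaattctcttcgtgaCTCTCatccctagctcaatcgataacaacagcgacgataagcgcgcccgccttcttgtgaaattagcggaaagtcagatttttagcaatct
sna, ranked peak, chr2L:15475915-15476214: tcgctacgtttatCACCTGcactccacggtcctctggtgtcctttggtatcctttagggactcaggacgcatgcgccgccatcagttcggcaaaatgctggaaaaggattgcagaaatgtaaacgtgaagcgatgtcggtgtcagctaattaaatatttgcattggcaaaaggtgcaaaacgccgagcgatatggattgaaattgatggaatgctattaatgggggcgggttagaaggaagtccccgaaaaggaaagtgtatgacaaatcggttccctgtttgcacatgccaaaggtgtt

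The farther SoxN window held GTGGGTG, an EGR-type site, near its left edge on the minus strand, and 7.90% of all pooled windows hold it. Its GC content was 38.7%, beside a mean of 39.3% over 3087 pooled windows of the same length. The window at Irbp held GAGAG, present in 36.2% of pooled windows, and its GC content was 33.3%. The window beside sna held the Snail-type E-box, present in 9.01% of pooled windows, and had a GC content of 47.0%. Over the 6 pooled windows near members, the motif GTGGGTG was present in 1, the GAGA motif in 1 and the Sox-type motif ACAAAG in 1 (the Sptz peak), and the other 7 motifs in 0. Of all pooled windows, 19.1% hold ACAAAG, and the other 7 motifs are each present in 1.39% (CAGGTAG) to 16.2% (ACAATG). A match is a run of letters and not a measured site, and no motif of the 10 contains another.

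Past the 3' end of pros (3R:11328480 to 11407627, plus strand, 79148 bp, 4 distinct starts) the peaks were the strongest of the set, and they lay at the starts of other genes. The first had its summit at 3R:11409974, 2347 bp past the end of pros and 73 bp from a start of Irbp, a homologue of the DNA repair protein Ku70. It lies between Irbp and the gene mgr on the opposite strand, and mgr and mRpL40 lie between pros and the summit. Its pooled signal of 266 stood beside 73.9 in replicate 1 and 193 in replicate 2. The second, at 3R:11421939, lay 14312 bp past the end of pros and 153 bp from a start of Sptz, with a pooled signal of 360.5 beside 140.3 in replicate 1 and 209.9 in replicate 2. Both had a score of 1000 in each of the 4 thresholded lists, and in signal they exceeded 88.6% and 93.7% of the pooled peaks. In replicate 1 the summit of the second lay nearest to a start of ninaG, at 188 bp. Inside the gene itself, no summit of any thresholded list was present, and pros is longer than 99.0% of protein-coding genes. The ranked list that holds the pooled peaks, whose median gap between neighbouring summits is 649 bp, had 107 candidate summits in the gene body. The best of those within 1 kb of a pros start lay at 3R:11335875, 895 bp from a start, with a score of 522 and a signal of 50.9. Its score in the other ranked list of the series was 506. Candidates within 1 kb of a pros start also reached a score of 417 in each replicate, at 3R:11335969 in replicate 1 (signal 30.8) and at 3R:11372904 in replicate 2 (signal 38.5), which are different places. Upstream of pros, replicate 1 ranked a candidate at 3R:11323833, 4647 bp from the gene, with a score of 706 and a signal of 38.6.

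Near dpn (2R:8228971 to 8232330, minus strand, 3360 bp, 1 start) the lists differed in which peaks they held. The pooled list held a peak 5100 bp upstream at 2R:8237430 with a signal of 74.2, 159 bp from a start of pnut, which encodes a septin. It also held a peak 9140 bp upstream at 2R:8241470 with a signal of 109, in intergenic sequence 3617 bp from the pnut start and 547 bp from a start of the non-coding gene lncRNA:CR44276. Both were in the list of replicate 2, with signals of 57.7 and 73.4 and scores of 1000. In replicate 1 they were ranked with signals of 19.7 and 29.1 and scores of 53 and 31, and neither was in the conservative list. Both thus passed the threshold in replicate 2 and not in replicate 1. Replicate 2 listed a further peak at 2R:8241709 with a signal of 31.5, close to the second of them. The conservative list held instead a peak 19423 bp upstream at 2R:8251753 (signal 62.7, score 860), 2158 bp from a start of CG44439. This peak scored 665 in the ranked list that holds the pooled peaks. It was in neither replicate's thresholded list, with scores of 32 in replicate 1 (signal 35.5) and 607 in replicate 2 (signal 38.7).

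Inside dpn, the list of replicate 1 held a peak at 2R:8229774, 2556 bp from the dpn start and 478 bp from a start of the antisense gene asRNA:CR44275. The nearest protein-coding start was that of CG34217, at 1047 bp. The peak had a signal of 43.8 and a score of 954. It was the only thresholded peak of any list inside a member, 1 of 8 genes against 5.03% of all protein-coding genes in that list. Replicate 2 and both ranked lists of the series listed no peak there. The ranked lists of the series held no summit anywhere in dpn: the gap between the neighbouring summits was 11.6 kb in the ranked list that holds the pooled peaks, where 0.678% of gaps are as long or longer and the median gap is 649 bp. Replicate 1 ranked 2 summits in dpn, so candidates could be listed there in that replicate. Whether a peak could have been listed there in the other ranked lists was not tested. The lack of pooled summits in dpn, and of ranked summits in those other lists, does not show that the gene was unbound.

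No thresholded peak of any list lay within 20 kb of wor, sna, esg or ase. The genes of the Snail family lie together on arm 2L, with the wor start 91.7 kb from that of esg and the sna start 52.7 kb from that of wor. The stretch read here runs from 20 kb before esg (2L:15333866 to 15336138, plus strand) to 20 kb upstream of sna (2L:15476593 to 15478260, minus strand). With wor (2L:15423297 to 15425580, minus strand) in between, the stretch is 184 kb long and overlaps 8 protein-coding genes. It held 0 summits in each of the 4 thresholded lists. Cutting the large arms into 716 windows of that length left 120 windows without a pooled summit (16.8%), and the median window held 4. The nearest pooled summits lay outside the stretch, at distances of 85.1 kb on the esg side and 20.8 kb on the sna side, which is upstream of sna. The stretch was not empty of candidates, since the ranked list that holds the pooled peaks had 218 summits in it, that of replicate 1 had 183 and that of replicate 2 had 154. Over the main arms these lists hold 133008, 116399 and 73923 summits, with median gaps of 649, 720 and 882 bp.

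**Figure D2:**
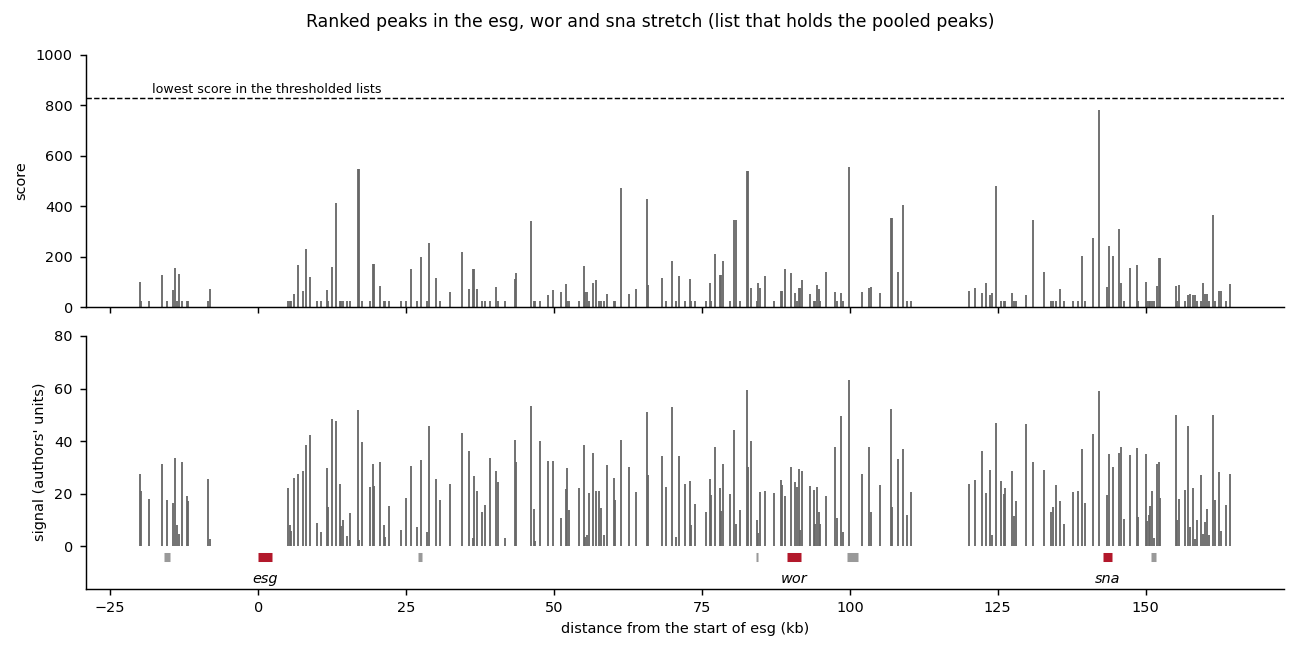
Score (upper panel) and signal (lower panel) of the summits of the ranked list that holds the pooled peaks, against distance from the start of esg in kb. Bars under the lower panel are protein-coding genes, with esg, wor and sna in red, and the dashed line is the score of 830. The highest score, 779, lies beside sna, and no candidate lies between 8196 bp before esg and 2824 bp past it.

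Beside sna, the ranked list held a candidate that came closer to the threshold than any other in this stretch. Its summit at 2L:15476065 lay 528 bp past the end of sna, with a score of 779 and a signal of 59.2, and 222 peaks of that list on the main arms lay between it and 830. In the other ranked list of the series the same peak had a score of 475. Replicate 1 ranked a peak at 2L:15476003 with a score of 174 and a signal of 24.7, and replicate 2 one at 2L:15475991 with a signal of 35.0. At the sna start the best score was 241, with a signal of 35.1. The best candidate near wor (score 556, and 704 in the ranked list that holds the conservative peaks, signal 63.3) lay 8191 bp upstream of it at 2L:15433771, but 462 bp from a start of CG4161. At the wor start the best scores were 109 and 227 in these lists, 41 in replicate 1 and 288 in replicate 2.

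At esg no candidate was listed at all within 1 kb of the start or in the gene, in any of the 4 ranked lists. This was so for 1117 of all protein-coding genes (8.01%). The gap between the neighbouring summits was 13.3 kb in the ranked list that holds the pooled peaks, where 0.554% of gaps are as long or longer, 11.6 kb in the list that holds the conservative peaks, 12.6 kb in replicate 1 and 11.5 kb in replicate 2. The highest signal within 20 kb of esg was 51.7, at 2L:15350707. Whether a peak could have been listed in this stretch was not tested, so the absence of a candidate does not show an absence of binding.

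Near ase (X:460747 to 463176, plus strand, 2430 bp, 1 start) the candidate of highest score in the ranked list that holds the pooled peaks, with a score of 758 and a signal of 71.0, lay 13525 bp past the gene at X:476701, 122 bp from a start of ebo. Replicate 2 gave that place a score of 41 with a signal of 52.0. In the ranked list that holds the conservative peaks the highest score was 169, at X:457942 in an intron of CG32816, 2805 bp upstream of ase, and in replicate 1 it was 113, at X:458003. At the ase start itself the best score in the first of these lists was 166, for a summit at X:461308 with a signal of 33.4. Replicate 1 ranked a peak there with a score of 35, and replicate 2 listed no candidate within 1 kb of the start.

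The gene nab (3L:4153618 to 4160932, minus strand, 7315 bp, 1 start) had no pooled or conservative peak within 20 kb. The list of replicate 2 held a peak 9274 bp upstream at 3L:4170206 with a signal of 51.3 and a score of 833, just past the threshold, 198 bp from a start of Ero1L, which encodes an oxidase of the endoplasmic reticulum. In replicate 1 the signal at that place was 2.16 with a score of 13. In the ranked list that holds the pooled peaks its score was 525. At the nab start the best scores were 160 there and 302 in the list that holds the conservative peaks, 35 in replicate 1 and 50 in replicate 2. Inside the gene, the best score in the ranked list that holds the pooled peaks was 416, at 3L:4156351, with a signal of 52.2. In the list that holds the conservative peaks it was the 302 at the start. Replicate 1 ranked a peak over a coding exon at 3L:4156376 with a score of 291, and the best score of replicate 2 was 122, at 3L:4155534.

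Counted over lists, 3 of the 8 genes had a conservative summit within 20 kb (dpn, SoxN and pros) against 60.3% of all protein-coding genes, 2 had one in replicate 1 (dpn and pros) against 47.6%, and 4 had one in replicate 2 (dpn, SoxN, nab and pros) against 62.7%. No thresholded list had a summit within 1 kb of a member's start. The shares of all protein-coding genes with such a summit were 16.1% in the pooled list, 13.1% in the conservative list, 8.96% in replicate 1 and 14.9% in replicate 2. Of the 6 pooled peaks, 5 overlapped a peak of replicate 2's list and 2 also overlapped a peak of replicate 1's list, both of them the peaks beside pros. The lists of replicates 1 and 2 hold 1511 and 2561 peaks on the main arms, beside 3087 pooled peaks. What share of all pooled peaks overlaps them is not given here, so these counts cannot be set against a background. In the ranked lists, all 6 pooled peaks had an overlapping peak in both replicates, with the higher signal in replicate 2 each time. The scales of the replicates may differ. These ranked lists are dense, with 116399 and 73923 summits on the main arms and median gaps of 720 and 882 bp. An overlap with them is thus easily had, and the shares over all pooled peaks are not given here.

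**Figure D3:**
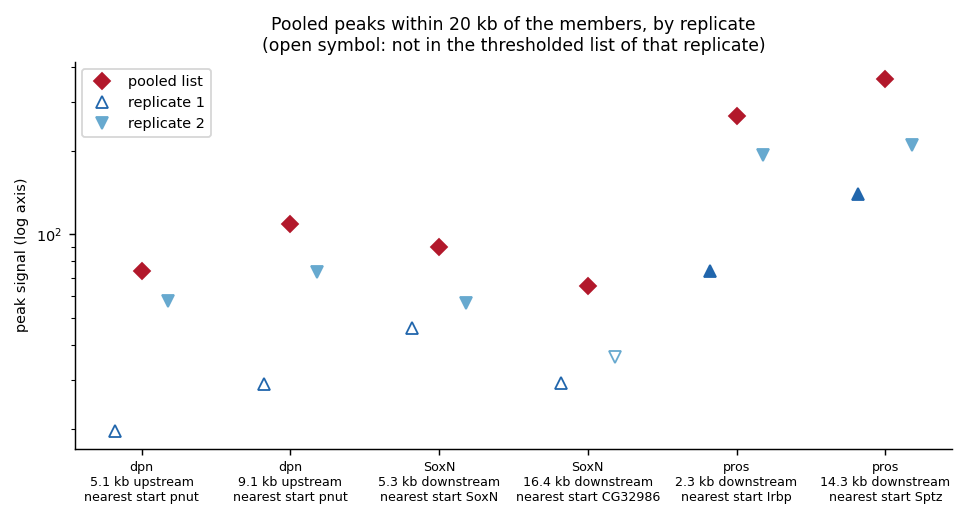
Signal (log axis) of the 6 pooled peaks within 20 kb of dpn, SoxN and pros in the pooled list (diamonds), replicate 1 and replicate 2 (triangles, from the ranked lists). Filled triangles are peaks in the thresholded list of that replicate, which for replicate 1 are those beside pros with signals of 73.9 and 140.3.

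Candidate peaks, where listed at the starts, were scored below the threshold in every ranked list. A ranked summit lay within 1 kb of a start for 6 of the 8 genes in the ranked list that holds the pooled peaks, against 83.1% of all protein-coding genes. The same 6 had one in the list that holds the conservative peaks, against 82.3%. In replicate 1 it was 7 of 8, all but esg, against 82.0%, and in replicate 2 it was 5 of 8, wor, sna, SoxN, nab and pros, against 69.9%. The best scores in the ranked list that holds the pooled peaks were 522 for pros, 241 for sna, 166 for ase, 160 for nab, 133 for SoxN and 109 for wor, against a median of 137 over 11590 genes with such a summit. These scores exceeded those of between 42.8% (wor) and 75.7% (pros) of these genes. Among the 8369 such genes with 1 start, whose median was 113, wor stood above 48.4%, SoxN above 54.9% (48.9% over all genes) and sna above 69.8%. The highest signals were 50.9 for pros, 47.1 for nab, 42.1 for SoxN, 35.1 for sna, 33.4 for ase and 29.3 for wor, against a median of 37.3. By signal, they exceeded between 31.3% (wor) and 70.3% (pros) of those genes. The highest of them, pros, has 4 starts in place of 1 and so more sequence in which a summit can lie. In replicate 1, dpn had candidates at its start with signals of up to 11.4, above 10.8% of the genes with a summit there. The order of the best scores differed between lists, though pros had the highest in each. The wor score was 227 (above 68.9% of genes) in the list that holds the conservative peaks, 41 (35.7%) in replicate 1 and 288 (67.8%) in replicate 2. The sna score was 258 (70.9%), 168 (75.6%) and 64 (43.5%) in the same lists.

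**Figure D4:**
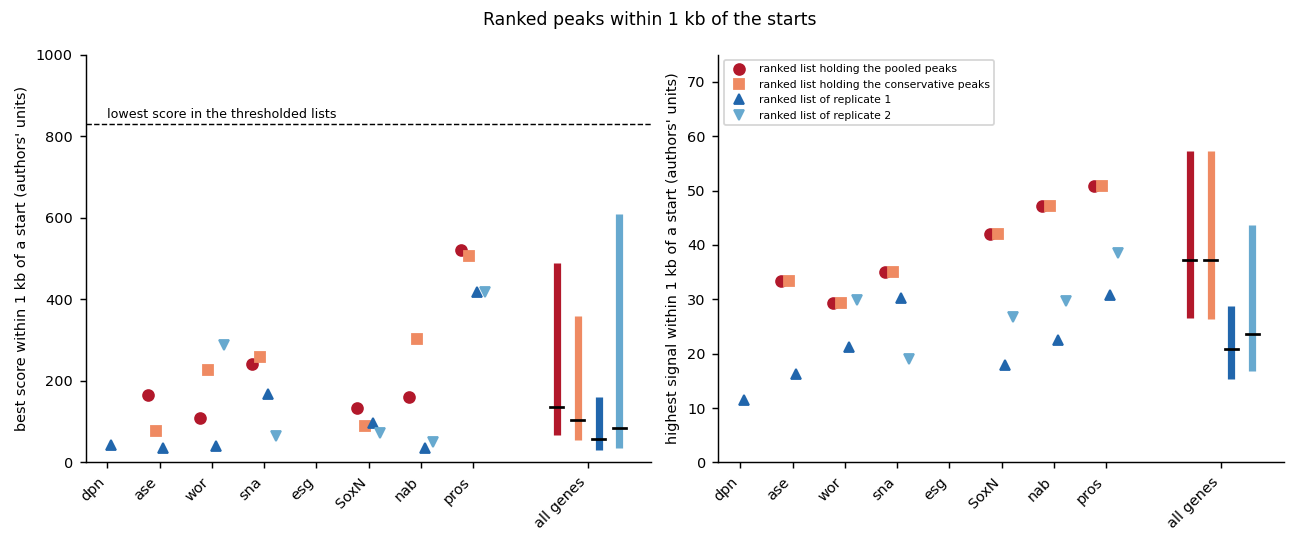
Best score (left) and highest signal (right) of ranked summits within 1 kb of a start, for each gene and each of the 4 ranked lists, in the authors' units. Bars at the right give the middle range (25th to 75th percentile) over all protein-coding genes with such a summit and black ticks the median; a missing symbol means no listed summit. All members lie under the dashed line at 830, pros highest with 522, and esg has no symbol.

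The promoters of the 8 genes, taken as 250 bp before to 50 bp after each of 11 distinct starts, were searched for the same motifs. GAGAG was present in 9 of the 11 and in 33.1% of 19253 promoters of all protein-coding genes. Every gene but ase had it in at least 1 promoter, though not all 4 promoters of pros did. Neither EGR-type heptamer was present in any of the 11, where 2.93% of all promoters hold GTGGGCG and 4.21% hold GTGGGTG. The Snail-type E-box was present at ase (9.65% of all promoters), CAGGTAG at dpn and sna (1.69%), CACGTG at esg and sna (4.01%), and CACGCG at SoxN, ase and wor (7.30%). Of the Sox-type motifs, ACAAAG (18.8%) and the variant ACAATG (15.5%) were present at pros.

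Relatives of the 8 genes and other neuroblast genes were read in the same way. Of 17 relatives (Hairy and E(spl)-type, achaete-scute, Snail-type and Sox genes), 2 had a pooled summit within 1 kb of a start, against the background of 16.1%. The promoter peak of Sox14 at 2R:23978553 had a pooled signal of 736 beside 399.7 in replicate 1 and 344 in replicate 2, and stood in the lists of both. The peak of E(spl)mgamma-HLH, a Notch-responsive repressor of the same broad family as Deadpan, had a signal of 74.3 at 3R:25999227 and was in neither replicate's list. Within 20 kb, 12 of the 17 had a pooled summit, against 67.4%. Among 16 genes of the neuroblast programme, 3 had such a summit: numb (signal 410.2, with no peak listed there in replicate 1), brat (signal 319.7) and klu (signal 108). Within 20 kb, 10 of the 16 had one, again against 67.4%. In that list 5 of 16 had a pooled summit inside the gene, klu, grh, brat, numb and N, against 8.83% of all protein-coding genes, and the 8 transcription factor genes had 0. This difference was not tested, and gene length was not taken into account. The programme counts near starts, within 20 kb and inside genes all include klu, the gene that the insertion targets. Whether the insertion affects the peaks listed at klu was not tested.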

How the data were processed

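ChIP-seq of 1 group with 2 biological replicates, numbered by the labels, was read from 8 peak lists in dm6, per the labels. The deposited score (column 5) and signal (column 7) were used as the authors gave them, and the replicate lists and the series lists were made by the authors from the alignments of the replicates, per the deposited text files. For aligner and peak caller the sources used here give neither name nor version. The lists hold no read counts, so depth is unknown.

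Summits on the 6 main arms were assigned to protein-coding genes of Ensembl release 115 (BDGP 6.54), within 1 kb of a start, in the gene body, or within 20 kb; peaks on Y and scaffolds were left out. A promoter summit lay within 500 bp of any start. A peak was matched across lists by an overlap of at least 1 bp. Python 3.11.15, pandas 2.3.3 and numpy 2.4.6 were used, and the window counts were checked on simulated data. The sequence came from RefSeq release 6, the assembly of dm6. The sequence of 1 SoxN peak is not reported here. The genes named are the 8 members, the gene with the nearest start to each member summit, and up to 4 genes of each other list with the highest signal within 1 kb of a start; grh and N were named for a count after their values were seen. Members and lists were chosen with earlier results of these data known. The alternatives were other lists, distances, overlaps and signal limits, and, added after seeing the data, RefSeq starts and the other ranked lists for the best score.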

Additional observations from a re-analysis of the deposited data

How the results depend on the processing

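The count of 0 genes with a pooled summit within 1 kb of a start was also 0 at 500 bp and 2 kb, by any overlap of the peak, in the conservative list, in each replicate's own list, above the median signal and with RefSeq starts. Using 1 replicate's own list in place of the pooled list, summits inside genes were found in 0 to 1 of the 8 genes, summits within 20 kb numbered 3 (replicate 1) to 7 (replicate 2), their median signal was 57.7 to 73.9, and 3 to 5 relatives and programme genes had a summit within 1 kb. Within 50 kb, 6 genes had pooled summits, 15 in all, and wor and esg had 0. Shares over all protein-coding genes at 500 bp, 2 kb and 50 kb are not given here. Above the median signal, 3 summits within 20 kb were left, with a median signal of 266; in the conservative list the median was 178. Peaks found in both replicates numbered 1 when at least 50% of the pooled peak had to overlap and 6 in the ranked lists. The other alternatives gave counts within 1.5 times the main ones. Signals of different lists need not share a scale. Few genes and unknown depth limit these counts, and binding at a place without a listed peak was not detectable in these lists.

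No paired analysis was possible because there is 1 group and no test between groups.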
